A study of Mus musculus with 4 samples.

Results

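The 10 genes described here are tied to Wnt-driven pericentral zonation of the liver lobule: Glul, Axin2, Lgr5, Rnf43, Znrf3, Lect2, Slc1a2, Rhbg, Oat and Tcf7l2. Of these, Tcf7l2 encodes a transcription factor through which the pathway acts. The 10 genes were chosen by name, though with earlier results of these data known. In all, 30562 genes had at least 3 analysed CpGs in the same span. Their CpGs are those within the annotated gene body on build mm10 and within 10 kb on either side. Of 2904 such CpGs listed in the deposited tracks, 1581 had at least 10 reads in every library, out of 1600691 nuclear CpGs that met this minimum in the whole series. None of the 10 genes showed a called methylation difference between Pnpla7-/- and Pnpla7+/+ liver at any scale examined. What the data hold is a detailed map of where these genes are methylated in liver and how tightly each level can be bounded.

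Hepatocytes along the lobule do not all run the same metabolism: those next to the central vein are kept in a pericentral state by Wnt ligands and R-spondins released by endothelial cells of the vein. In those hepatocytes β-catenin enters the nucleus, binds factors of the TCF/LEF family and switches on genes for glutamine synthesis and ammonia scavenging, along with feedback regulators of the pathway itself. CpG methylation at a gene's start is usually low when the start lies in a dense stretch of CpGs, whether or not the gene is active in a given cell, while CpGs in gene bodies are usually highly methylated.

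The assay was reduced representation bisulfite sequencing, in which DNA is cut at CCGG and TCGA sites so that CpG-rich parts of the genome are over-represented. The tissue was whole liver of 6-week-old C57BL6/N mice. There were 2 libraries from Pnpla7+/+ animals (WT) and 2 from animals without Pnpla7, Pnpla7-/- (KO), a gene for a lysophospholipase. The labels give no other treatment. They leave unsaid if each library is a different animal, and p-values therefore measure only the spread between these libraries, which may be technical. Each library held 50413170 to 60535892 reads over cytosines, with a median of 21 to 25 reads at the analysed CpGs, and the mean level over these CpGs was 44.7% to 45.2%. Pnpla7 itself had 1084 to 1331 reads over its body in each of the 4 libraries and a window at its start at 0.426% to 0.59%, so the covered CpGs do not check the genotype labels. In whole liver, methylation in fewer cells of a type and a lower share in each cell cannot be told apart, and pericentral hepatocytes are known as a minority of liver cells.

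As a check of the tissue, windows of 1 kb on either side of gene starts were compared between marker lists. The 5 hepatocyte markers with a window (Apoa2, Serpina1a, Hnf4a, Fgb and Trf) had a median WT level of 11.8%, and 4 of them lay below 20%, a share of 80% beside 73.9% of all gene windows. Lists of other liver cells were low too: 4 of 5 stellate cell markers (median 14.7%), 3 of 6 cholangiocyte markers (median 16.1%) and the single endothelial window, Kdr at 3.01%. The 4 leukocyte and Kupffer cell markers with a window (Adgre1, Cd3e, Cd79a and Csf1r) had a median of 84.1%, and 0 of 4 lay below 20%. In the 4 libraries these 4 windows ranged from 70% to 94.8%, in both genotypes. Low methylation at the hepatocyte markers therefore does not single out hepatocytes here, and expression was not measured.

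The sequences just upstream of the starts show how many CpGs each gene offers there and which of them were read. RefSeq promoter sequences (GRCm38.p6, the assembly of mm10) were found for 7 of the 10 genes, with 9 starts, all except Lgr5, Znrf3 and Rhbg. The 4 printed here are the 250 bases before the start of Glul, Oat, Lect2 and Tcf7l2, whose start windows are described next. Each is written 5′ to 3′ on the strand of the gene, and capitals mark the analysed CpGs.
Glul, chr1:153899679-153899928, plus strand: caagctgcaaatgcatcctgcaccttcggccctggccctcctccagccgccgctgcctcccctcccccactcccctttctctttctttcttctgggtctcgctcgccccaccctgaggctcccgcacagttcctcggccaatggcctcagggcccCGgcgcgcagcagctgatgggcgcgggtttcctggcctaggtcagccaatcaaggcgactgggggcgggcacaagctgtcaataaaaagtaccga
Oat, chr7:132576399-132576648, minus strand: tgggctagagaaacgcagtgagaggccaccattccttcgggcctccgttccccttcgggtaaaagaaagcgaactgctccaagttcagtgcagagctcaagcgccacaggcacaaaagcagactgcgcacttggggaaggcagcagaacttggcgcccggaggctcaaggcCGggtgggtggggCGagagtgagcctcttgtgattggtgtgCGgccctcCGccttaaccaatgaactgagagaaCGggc
Lect2, chr13:56548539-56548788, minus strand: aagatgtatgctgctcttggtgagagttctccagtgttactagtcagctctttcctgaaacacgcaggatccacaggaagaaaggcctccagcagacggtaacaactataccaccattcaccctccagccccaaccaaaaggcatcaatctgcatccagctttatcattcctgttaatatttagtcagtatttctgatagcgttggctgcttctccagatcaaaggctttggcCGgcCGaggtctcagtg
Tcf7l2, chr19:55741560-55741809, plus strand: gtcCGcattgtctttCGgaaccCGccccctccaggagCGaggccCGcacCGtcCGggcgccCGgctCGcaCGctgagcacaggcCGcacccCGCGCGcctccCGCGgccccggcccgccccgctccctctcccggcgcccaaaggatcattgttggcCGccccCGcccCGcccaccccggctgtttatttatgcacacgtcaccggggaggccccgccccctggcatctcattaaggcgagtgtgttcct
The upstream sequence of Tcf7l2 held 30 CpGs, of which 19 were analysed, against 1 of 15 for Glul, 5 of 14 for Oat and 2 of 5 for Lect2. Lect2 was the CpG-poor sequence of the 4. The table's sequences run on for 50 bases past the start, which adds 8 analysed CpGs for Oat and 2 for Lect2. Axin2, not printed here, had 31 CpGs in its 300-base sequence, of which 7 were analysed. Those 7 stood at 1.23% and 1.55% in WT and 2.17% and 0% in KO, over 129 to 184 reads per library. The count of 0 in 147 reads allows up to 2.04%. The sequences of Rnf43, at both its starts, of Slc1a2 and of the second start of Tcf7l2 held no analysed CpG.

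The 9 sequences were searched on both strands for the 7-letter TCF/LEF core in 4 forms: CTTTG followed by 2 bases that are each A or T. Of all 32851 promoter sequences in the table, 16.9% held a match. Among the 9, 3 did: Lect2 with ATCAAAG at 32 bases upstream of the start, visible near the end of its sequence above, Slc1a2 with ATCAAAG at 207 bases upstream, and the second start of Tcf7l2 with CTTTGTT at 14 bases upstream. The windows printed for Glul, Oat and Tcf7l2 have none of these letters. A match is a description of the sequence, and the data do not show binding.

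In these sequences the analysed CpGs were almost unmethylated in every library. For Oat, the 13 analysed CpGs stood at 0%, 0.321%, 0.326% and 0.554% in WT replicates 1 and 2 and KO replicates 1 and 2 (278 to 361 reads per library; 0 in 278 reads allows up to 1.08%). For Tcf7l2, the 19 CpGs stood at 1.18%, 0.636%, 0% and 0.542% in the same order, with 423 to 558 reads (0 in 558 allows up to 0.538%). The single Glul CpG, 95 bases upstream, had 0 methylated reads of 10 to 22 in each library, and 0 of 10 allows up to 30%. Lect2 differed most between libraries, at 11.3%, 1.74%, 6.71% and 8.4% over 4 CpGs. Its WT libraries lay farther apart than either lay from the KO libraries.

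Around the starts of the CpG-dense genes, methylation was near 0 over short stretches and high on either side. In Glul, the gene of glutamine synthetase, the 64 CpGs of the tile from 153900001 to 153901000 stood at 0.473%, 0.403%, 0.322% and 0.113%, in the order WT replicates 1 and 2, KO replicates 1 and 2. The next tile upstream, from 153899001 to 153900000, stood at 53.4%, 59.9%, 46.8% and 52.2%, and a tile 8571 bp into the gene at 76.4%, 84.6%, 91.7% and 87.1%. In Tcf7l2 the 4 tiles from 55741001 to 55745000 were at 1.28% or less in each library, the densest of them (55742001 to 55743000, 52 CpGs) at 0.245%, 0.606%, 0.26% and 0.355%, and the next tile was at 52.2% to 61.2%. In Oat, the gene of ornithine aminotransferase, a CpG 501 bp upstream of the start was at 72.4%, 75%, 58.5% and 53.8%, while the 13 analysed CpGs of its RefSeq sequence, the first of them 79 bp upstream, were near 0. The Lgr5 end shows the same edge, with the tile from 115587001 to 115588000 at 0.402%, 0.312%, 0.644% and 0.222% next to one at 58.2% to 71.8% outside the gene.

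**Figure D1:**
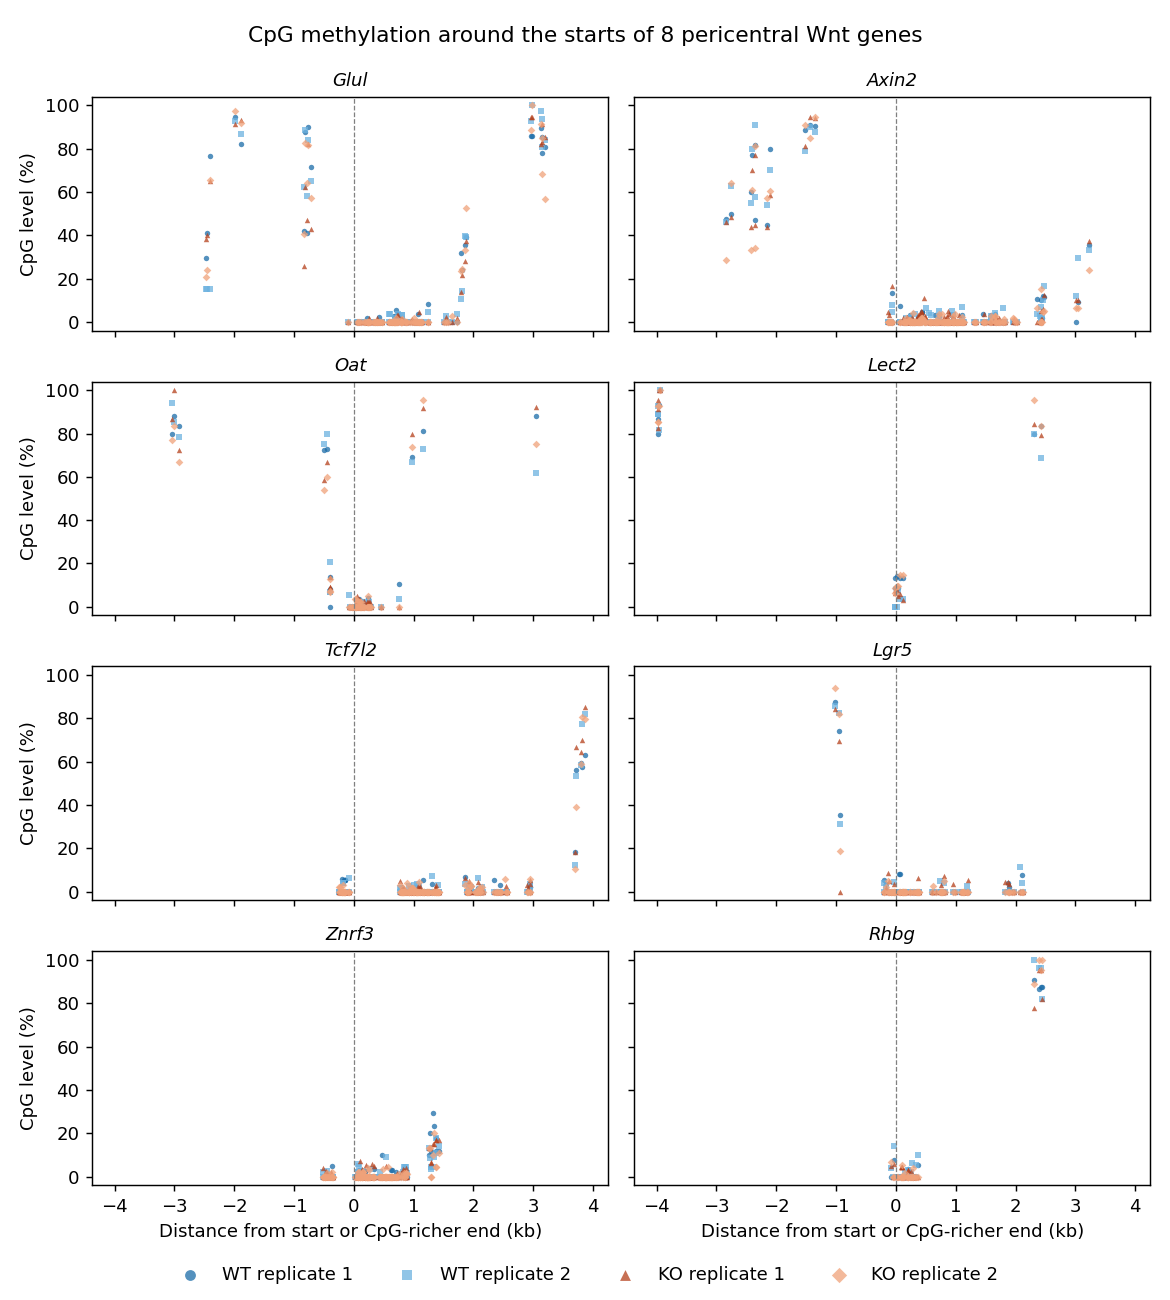
Methylation level of each analysed CpG (vertical axis, percent of reads) against its distance from the gene's start or CpG-richer annotated end (horizontal axis, kb, positive into the gene) for 8 genes, 1 point per CpG and library. In 7 of the 8 panels the 4 libraries overlie each other near 0% at the start. In the Lect2 panel they range from 2.33% to 12.1% over the start window, and in several panels single CpGs spread apart on the flanks, as at 831 bp upstream of Glul, where the libraries ranged from 25.6% to 62.1%.

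Taken as windows of 1 kb on either side of the start, all 8 genes with at least 3 analysed CpGs were below 20% in WT, against 73.9% of all gene windows. The start is the RefSeq one, or, for Lgr5, Znrf3 and Rhbg, the gene end richer in CpGs. Tcf7l2 was at 0.444% ± 0.0548 in WT and 0.304% ± 0.22 in KO (SD, n = 2, as for each mean that follows), over 50 CpGs. Axin2, a scaffold of the complex that destroys β-catenin, was at 0.48% ± 0.0174 and 0.597% ± 0.379 over 101 CpGs. Znrf3, a ubiquitin ligase that removes Wnt receptors from the cell surface, was at 0.642% ± 0.177 and 0.412% ± 0.043 over 119 CpGs, with both KO libraries below both WT libraries. Rhbg, an ammonium transporter, was at 0.952% ± 0.712 and 0.812% ± 0.432 over 27 CpGs.

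The other 4 windows had higher means, between 2.2% and 8.77%. Lgr5, a receptor for R-spondins, was at 2.64% ± 0.000604 in WT and 2.2% ± 0.276 in KO over 54 CpGs. Glul was at 4.27% ± 0.28 and 3.68% ± 0.0859 over 65 CpGs, and its difference of -0.587 points had a 95% interval from -1.54 to 0.361. Lect2, which encodes a secreted hepatocyte protein, rested on 6 CpGs and was the most variable, at 12.1%, 2.33%, 6.03% and 11.2% in WT replicates 1 and 2 and KO replicates 1 and 2. Oat was at 8.18% ± 0.0721 and 8.77% ± 0.138 over 44 CpGs, the single window of the 8 in which both KO libraries lay above both WT libraries. Both KO libraries lay below both WT libraries in Glul, Lgr5 and Znrf3.

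No window was called: with the moderated quasi-binomial model, 0 of 8 had a Benjamini-Hochberg adjusted p under 0.05 with a difference of at least 10 percentage points, and 0 of 8 had an unadjusted p under 0.05. Of all gene windows, 0.0405% were called and 6.47% had such an unadjusted p. The lowest adjusted p of the 8 was 0.827. Their WT means were at most 8.18%, so a loss of 10 points in KO was impossible and only gains could be called. Over all windows, both KO libraries lay above both WT libraries in 17.7% and below in 16.8%. Fisher's exact test on summed reads and limma also called 0 of the 8. For Lect2 the 95% interval of the difference ran from -4.43 to 7.34 points, and for the other 7 no bound lay farther than 2.36 points from 0.

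The choice of start mattered for Axin2 and Slc1a2. The RefSeq start used for Axin2 lies 2521 bp inside the annotated gene, and the window at the annotated 5′ end, tried after the data had been seen, held 8 CpGs at 59.3%, 62%, 52.5% and 53.5%. Its unadjusted p was 0.0497 and it was not called, with 0 of 9 windows called in that setting and a lowest adjusted p of 0.78. Slc1a2, a glutamate transporter, has its RefSeq start 48199 bp inside the gene, where no CpG was analysed within 1 kb. At its annotated 5′ end, 68 CpGs stood at 1.01% and 1.16% in WT and 1.48% and 1.25% in KO.

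Over the whole region of each gene, body and flanks together, levels differed far more between genes than between libraries. Levels here are reads methylated out of all reads, and the median of the 10 genes was 31.1% in WT and 31.5% in KO, beside 46.1% and 46% over all genes. In ascending order the genes were Znrf3, Rhbg, Axin2, Oat, Glul, Slc1a2, Lgr5, Tcf7l2, Lect2 and Rnf43. The library values of Oat overlapped those of Axin2 and of Glul, and those of Slc1a2 overlapped those of Lgr5. All other neighbours in this order were separated. The order nearly mirrors the share of analysed CpGs with a mean level below 20%, which ran from 79.5% in Znrf3 to 14.5% in Rnf43.

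**Figure D2:**
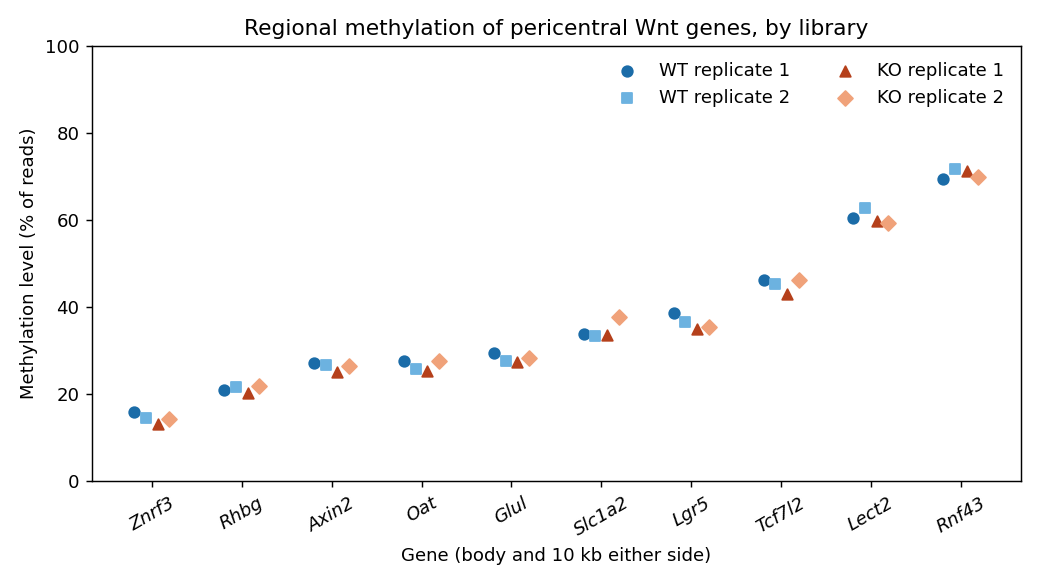
Regional methylation level (vertical axis, percent of reads over the gene body and 10 kb on either side) of the 10 genes, 1 point per library, ordered by mean level. The 4 points of a gene lie within 5 percentage points of each other, while the genes run from 13.3% to 71.8%.

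For the genes that handle ammonia, glutamate and glutamine, the regional levels of the genotypes lay close together. Glul (chr1:153899929-153909723, plus strand) was at 29.5% and 27.6% in WT and 27.4% and 28.3% in KO, with overlapping libraries and a difference of -0.762 points (95% interval -3.02 to 1.5). Oat (chr7:132557475-132576398, minus strand) was at 27.7% and 25.8% in WT and 25.3% and 27.6% in KO, a difference of -0.282 (-3.46 to 2.9). Rhbg (chr3:88242874-88254739) was at 20.9% and 21.8% against 20.2% and 21.9%, a difference of -0.305 (-3.08 to 2.47). These 3 genes overlapped between genotypes.

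Slc1a2 (chr2:102658239-102790784, plus strand) was at 33.8% and 33.5% in WT and 33.7% and 37.9% in KO. Its difference of 2.12 points (-1.33 to 5.57) came from KO replicate 2 alone: without that library it was 0.0348 points. Lect2 (chr13:56529734-56548559, minus strand) was at 60.5% and 62.8% in WT and 59.9% and 59.4% in KO, with both KO libraries lower and a difference of -1.98 (-6.28 to 2.32). Giving each CpG the same weight turned the Lect2 difference to 0.483.

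Of the feedback regulators and receptors, Axin2 and Znrf3 had the narrowest intervals of the 10 genes. Axin2 (chr11:108917828-108950783, plus strand) was at 27.2% and 26.6% in WT and 25.2% and 26.5% in KO, a difference of -1.06 points (-2.71 to 0.596). Znrf3 (chr11:5276329-5444847) was at 15.9% and 14.5% against 13.3% and 14.4%, a difference of -1.37 (-3.19 to 0.448). Lgr5 (chr10:115450314-115587780) was at 38.7% and 36.5% against 34.9% and 35.5%, a difference of -2.42 (-5.34 to 0.493). In these 3 genes both KO libraries lay below both WT libraries. With each CpG weighing the same, the differences were -0.267 for Axin2, -0.0119 for Znrf3 and -0.269 for Lgr5. Leaving out 1 library brought them as near 0 as -0.375 (Axin2, without KO replicate 1), -0.685 (Znrf3, without WT replicate 1) and -1.3 (Lgr5, without WT replicate 1). Rnf43 (chr11:87663087-87735539, plus strand), the ubiquitin ligase paired in function with Znrf3, was at 69.4% and 71.8% against 71.2% and 70%, a difference of -0.067 (-2.96 to 2.83). Its high level goes with 284 listed CpGs of which 110 were analysed, none of them within 1 kb of its RefSeq start at 87663087.

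Tcf7l2 (chr19:55741797-55933659, plus strand), which encodes a TCF/LEF factor through which β-catenin acts, held 413 analysed CpGs, the most of the 10. Its levels were 46.4% and 45.2% in WT and 43.1% and 46.3% in KO, a difference of -1.12 points (-3.53 to 1.3) with overlapping libraries.

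Among the 10 regions, 0 were called by the moderated quasi-binomial model, beside 0% of all 30562 regions, and 0 had an unadjusted p under 0.05, beside 4.58% of all regions. Both KO libraries were lower in 4 regions (15.5% of all regions) and higher in 0 (17.8%). For each of those 4 genes, Axin2, Lgr5, Znrf3 and Lect2, a two-sided exact permutation test gave p = 0.333, the smallest that 2 libraries against 2 allow. The KO mean was lower in 9 of 10 genes and higher in 1, beside 48.7% and 51.3% of all regions, but in 6 of 10 when each CpG had the same weight and in 6 to 8 of 10 when 1 library was left out. None of the 10 regions was called under any alternative run, but limma, like the main fit, called 0 of all regions, so its 0 here was certain. The lowest adjusted p of the 10 was 0.99 on all 4 libraries, 0.673 (Tcf7l2) without KO replicate 2, and 0.0608 (Lgr5) by Fisher's exact test, which ignores the spread between libraries.

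Reads were then summed in fixed tiles of 1 kb with at least 3 analysed CpGs, which gave 147 tested tiles over the 10 genes. The 14 gene-body tiles within 1500 bp of the start used had median levels of 0.726% in WT and 0.665% in KO. The 107 tiles in the rest of the gene bodies had medians of 87.5% and 88%, and the 26 tiles of the flanks 70.2% and 68%. The rest of the bodies takes in the low tiles at the annotated 5′ end of Slc1a2. The flanks take in tiles near a start, such as that centred 720 bp outside Lgr5. Tiles were therefore mostly near 0 or near full methylation: 31 had a mean below 20%, 84 above 80% and 32 between.

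The moderated quasi-binomial model called 0 of the 147 tiles (adjusted p under 0.05 and at least 10 points), beside 0.0874% of all 163610 tiles. An unadjusted p under 0.05 was found for 4 of 147, or 2.72%, beside 6.31% of all tiles. Fisher's exact test called 0 of the 147 as well, beside 1216 of all tiles. Limma called 0 of all tiles, so its 0 among the 147 was certain and adds no support. The KO mean was higher in 74 tiles and lower in 73, with a median difference of 0.0146 points, beside 0.171 over all tiles. Both KO libraries lay above both WT libraries in 28 tiles, or 19%, beside 19.5% of all tiles, and below in 24, or 16.3%, beside 14.9%. The median size of a tile's difference was 1.54 points here and 2.07 over all tiles, and 1 of 147 tiles differed by 10 points or more, or 0.68% beside 4.03%. In the 32 tiles of intermediate level, the WT libraries differed from each other by a median of 4.13 points and the KO libraries by 5.08, while the pairs of a WT and a KO library differed by medians of 3.37 to 5.37. Differences across genotypes at these tiles were thus of the size seen between libraries of 1 genotype.

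**Figure D3:**
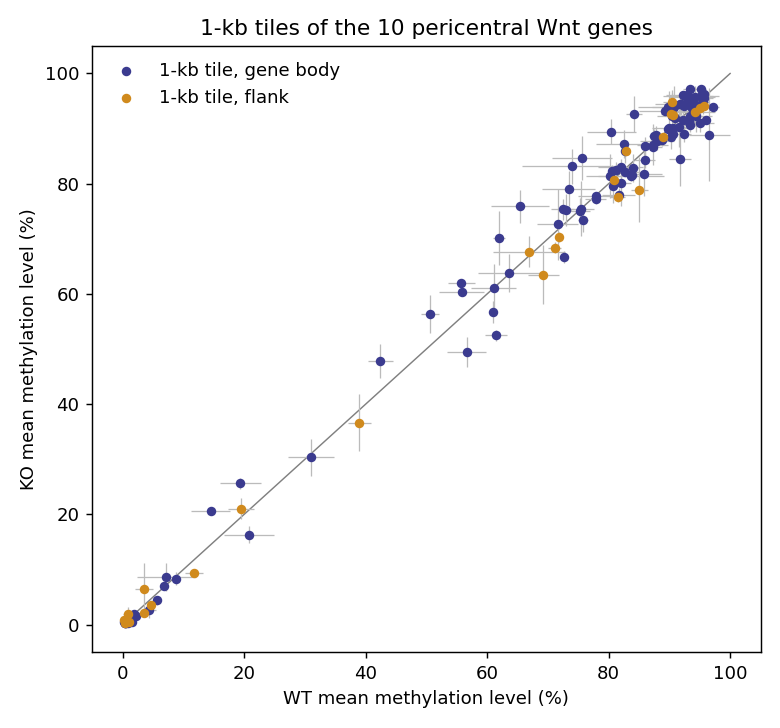
Mean KO level against mean WT level (both axes percent of reads) for the 147 tiles of 1 kb, in gene bodies or flanks, with bars spanning the 2 libraries of each genotype and the line of equality. The tiles follow the line from near 0% to near 100%, with differences between -8.94 and 10.5 points.

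The 4 tiles with an unadjusted p under 0.05 lie in Glul, Axin2 and Tcf7l2. In Glul the tile from 153908001 to 153909000, near the 3′ end of the gene, was at 76.4% and 84.6% in WT and 91.7% and 87.1% in KO over 5 CpGs and 101 to 180 reads. Both KO libraries were higher, by 8.92 points (95% interval 1.69 to 16.2; adjusted p = 0.623, moderated quasi-binomial model). Leaving out 1 library moved the difference to between 4.84 (without WT replicate 1) and 13 points (without WT replicate 2). Of its 5 CpGs, 2 had both KO libraries above both WT libraries, beside 14.6% of all CpGs tested in the genome. In Axin2 the tile from 108917001 to 108918000, which holds the annotated 5′ end, was at 59.6% and 63.2% in WT and 53.5% and 51.5% in KO, a difference of -8.94 points (-17.3 to -0.584; adjusted p = 0.753, same model). There, 4 of 6 CpGs had both KO libraries below both WT libraries, beside 12.7% of all CpGs tested in the genome. Both tiles were picked for their small p on the same reads, so these counts add no support.

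In Tcf7l2 the tile from 55807001 to 55808000 was at 22.9% and 16% in WT and 24.6% and 26.7% in KO over 13 CpGs and 385 to 495 reads. The difference was 6.22 points (1.24 to 11.2; adjusted p = 0.634, moderated quasi-binomial model), or adjusted p = 0.0606 by Fisher's exact test. It was 9.67 points without WT replicate 1 and 2.78 without WT replicate 2. This tile, 65690 bp into a gene whose body is otherwise mostly above 80%, is 1 of few low tiles away from the starts. Its CpG at 55807303 was at 35% and 37.3% in WT and 56.6% and 56% in KO, while its CpG 65 bases before that, at 55807238, was below 4% in every library. The other Tcf7l2 tile, from 55757001 to 55758000, was at 82.8% and 85.5% in WT and 96% and 89.5% in KO. It was picked for its unadjusted p after its values were seen.

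**Figure D4:**
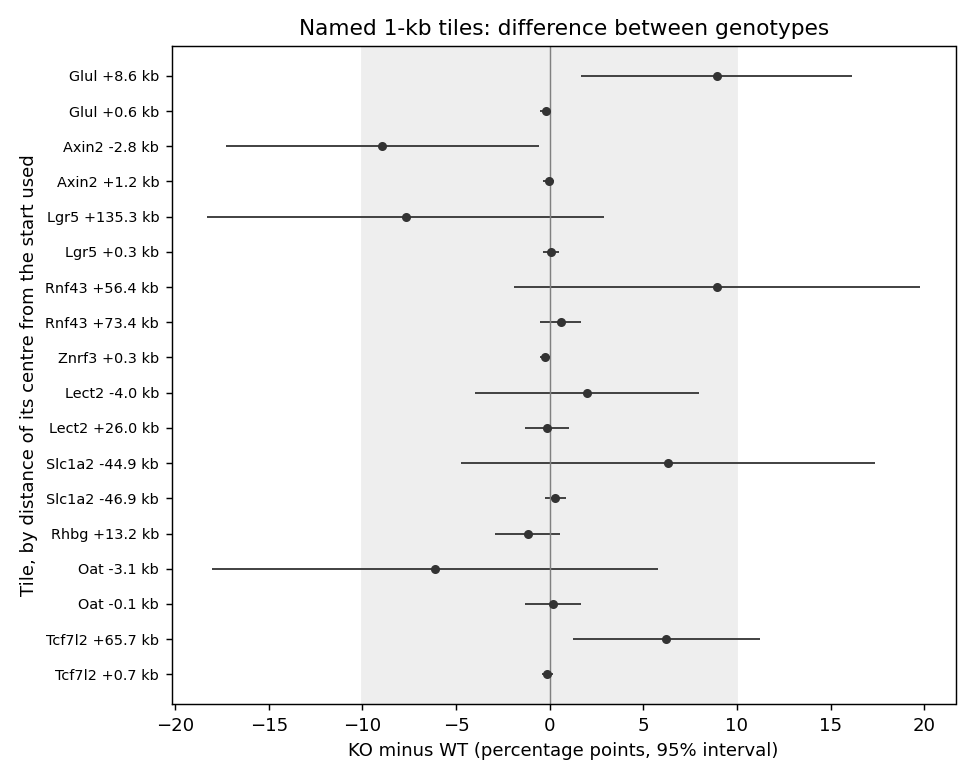
Difference in methylation level, KO minus WT in percentage points (horizontal axis, with 95% intervals as bars), for the 18 named tiles, which are the tile of smallest p and the tile with most CpGs of each gene (1 tile where both are the same), labelled by distance from the start used. The shaded band marks differences under 10 points. All 18 point estimates lie inside the band, and the intervals of the CpG-dense tiles at starts reach less than 1 point from 0, apart from that of Oat.

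The remaining named tiles put bounds on the other genes. In Rnf43 the tile from 87719001 to 87720000 was at 80.6% and 70.7% in WT and 80.6% and 88.6% in KO, a difference of 8.95 points with an interval from -1.88 to 19.8, or 13.9 points without WT replicate 1 and 4.01 without WT replicate 2. In Slc1a2 the tile from 102661001 to 102662000 was at 58% and 53.5% against 62.5% and 61.6%, with an interval from -4.74 to 17.4. In Lgr5 the tile from 115452001 to 115453000 was at 100%, 93.2%, 97.3% and 80.5%, and its difference of -7.7 points turned to 0.706 without KO replicate 2. In Oat an upstream tile from 132579001 to 132580000 was at 83.6%, 86.5%, 84.8% and 73.1%, and its difference of -6.15 points was -0.294 without KO replicate 2. These 4 tiles rest on 3 to 5 CpGs and 37 to 114 reads per library. In Lect2 the tile of smallest p, from 56552001 to 56553000 in the flank, was at 90.7% and 90.4% in WT and 93.9% and 91.1% in KO, with an interval from -4 to 7.98.

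The tiles densest in CpGs were low and differed by fractions of a point. Znrf3 (5444001 to 5445000, 96 CpGs, 2596 to 3394 reads) was at 0.578% and 0.615% in WT and 0.383% and 0.363% in KO, with an interval from -0.511 to 0.0632. Axin2 (108921001 to 108922000, 66 CpGs) was at 0.2% and 0.541% against 0.293% and 0.343%. Slc1a2 (102659001 to 102660000, 44 CpGs), next to its annotated 5′ end, was at 0.779% and 0.455% against 0.922% and 0.903%, with an interval from -0.267 to 0.859. Oat (132576001 to 132577000, 41 CpGs) was higher than these, at 6.81% and 6.84% against 7.07% and 6.94%, with an interval from -1.32 to 1.69.

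Some low tiles in the spans do not sit at a start of the 10 genes. A flank tile near Rhbg, from 88241001 to 88242000, held 29 CpGs at 5.17%, 4.22%, 4.34% and 2.72% and lies in no annotated gene. A tile in the Rnf43 flank, from 87736001 to 87737000, was at 0.87% or less in every library and also lies in no annotated gene, though the span of Rnf43 takes in Hsf5, 1110028F11Rik and Supt4a. The low tile of the Lect2 flank, from 56522001 to 56523000, lies in Fbxl21 and was at 0.813% or less. In Tcf7l2 the tile at the second RefSeq start, from 55895001 to 55896000, held 26 CpGs at 3.33%, 5.46%, 4.11% and 1.3%, inside a body otherwise mostly methylated.

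At single CpGs, 1164 of the 1581 had both methylated and unmethylated reads and were tested, and 0 were called, beside 0.000712% of all tested CpGs. An unadjusted p under 0.05 was found for 33, or 2.84%, beside 3.85% of all, and every one of them had an adjusted p of 0.743 or more. Fisher's exact test also called 0. Tcf7l2 held 15 of these 33 among 337 tested CpGs, Oat 5 of 60 and Rnf43 5 of 105, while Lect2 had 0 of 44. The CpGs with the 2 smallest p were both in Tcf7l2. The first, at 55797614, was at 78.6% and 80% in WT and 95.7% and 100% in KO. The second, at 55757586, was at 75% and 70% in WT and 94.1% and 93.2% in KO. Other CpGs, singled out after their values were seen, pointed the other way: upstream of Oat the CpG at 132576847 was at 73% and 79.7% in WT and 67% and 59.8% in KO. Upstream of Glul the CpG at 153899098 was at 42.1%, 62.1%, 25.6% and 40.7%, so that 1 library of each genotype lay within 2 points of the other.

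Analysed CpGs of the 10 genes were more often unmethylated than CpGs at large. A mean level below 20% was found for 839, or 53.1%, beside 45% of all analysed CpGs, and a level between 20% and 80% for 177, or 11.2%, beside 18.6%. Above 80% there were 565, or 35.7%, beside 36.4%.

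The wider pathway was described with lists that overlap in Lgr5, Nkd1 and Notum. Of ligands and their secretion factors, 0 of 103 tiles were called. Of receptors the count was 0 of 206, of inhibitors 0 of 114, of intracellular transducers 1 of 331 and of target genes 1 of 84, to be read beside the 0.0874% of all tiles. The lists held 11, 14, 12, 20 and 6 start windows in the same order, with that of Notum among both inhibitors and targets. None of these windows was called, and 3 had an unadjusted p under 0.05, those of Porcn, Amer1 and Gsk3a. Over all gene windows 6.47% had such a p, so 3 among these lists is no excess. All windows of these lists were below 20% in WT apart from 1 of 12 among the inhibitors and 1 of 20 among the transducers. Porcn, an enzyme that acylates Wnt proteins, was at 17.5% ± 0.677 in WT and 12.5% ± 1.33 in KO (adjusted p = 0.486, moderated quasi-binomial model), and Amer1, a regulator of β-catenin destruction, was at 24% ± 0.122 and 19.3% ± 2.13 (adjusted p = 0.724). Both lie on the X chromosome.

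Among these lists, 2 tiles were called. In Ccnd1, the cyclin D1 gene, the tile from 144934001 to 144935000 rose from 39.5% and 39.3% in WT to 63.4% and 69.9% in KO, by 27.3 points (19.8 to 34.8; adjusted p = 0.00145, moderated quasi-binomial model; 7 CpGs). In Bcl9, the gene of a cofactor of β-catenin, the tile from 97296001 to 97297000 rose from 0% in both WT libraries to 14.4% and 16.2% in KO (adjusted p = 0.0138, same model, 4 CpGs). Its 63 and 95 WT reads with a count of 0 allow up to 4.76% and 3.16%. The start windows of the same genes were not called, Ccnd1 at 2.18% ± 0.376 and 1.83% ± 0.163, Bcl9 at 0.688% ± 0.233 and 0.266% ± 0.279. Neither window covers its called tile: that of Ccnd1 runs from 144938831 to 144940831 and that of Bcl9 from 97226364 to 97228364. They therefore do not describe the sequence at the tiles.

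Pericentral genes outside the 10 had 1 called tile of 88, and periportal genes, which are highest at the other end of the lobule, 0 of 157. The called one is in Cyp7a1, whose product starts the classical route of bile acid formation, from 6272001 to 6273000, at 63.6% and 75.9% in WT and 85.7% and 85.1% in KO (adjusted p = 0.00504, moderated quasi-binomial model). With the replicate block or by limma none of the 3 calls in Ccnd1, Bcl9 and Cyp7a1 held. Each of those 2 settings called 0 tiles in the whole genome, so that loss is not particular to these tiles. Leaving out a library leaves 1 library in a group, so only the differences are given. They ran from 24 to 30.6 points in Ccnd1, 14.4 to 16.2 in Bcl9 and 9.47 to 21.8 in Cyp7a1. With a prior drawn from informative features alone the 3 were called, at adjusted p from 0.0023 to 0.0205, and so they were by Fisher's exact test, at 3.24e-06 or less. The median tile difference was 0.835 points for the pericentral list and 2.07 for the periportal one, beside 0.0146 for the 10 genes, 0.171 over all tiles and 1.58 for the hepatocyte markers. Among periportal start windows, 9 were higher in KO and 3 lower, none called, beside 10049 higher and 9678 lower of all gene windows. The lean was not particular to periportal genes: pericentral windows were 7 higher and 2 lower, and hepatocyte marker windows 4 and 1. Windows of the Wnt inhibitors (2 higher, 10 lower) and cholangiocyte markers (1 and 5) leaned the other way. The periportal window of smallest p was that of Sds, serine dehydratase, at 21.7% and 19.3% in WT and 30.6% and 27.4% in KO (adjusted p = 0.311, same model). The pericentral one was that of Cpox, at 0.53% and 0.16% in WT and 0.868% and 1.03% in KO (adjusted p = 0.741, same model).

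By regional level over the 4 libraries, the genes of these lists closest to Glul were Bcl9l, with a root-mean-square difference of 0.947 points, and Des, with 1.66. Closest to Axin2 were Oat, with 0.748 points, and Des, with 0.961. The comparison covered 142 genes and describes similar mean levels.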

How the data were processed

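Liver DNA was digested with TaqI and then MspI, ligated into libraries, converted with bisulfite and amplified, per the labels' protocols. The authors deposited, per library, a track of levels and a track of read depth on mm10, per the file headers. Their unit is neither a plain fraction nor a plain count: a deposited level is a fraction and a deposited depth a whole number of reads, both with a minus sign on the reverse strand. BWA 0.7.12 and MACS are named in the submitters' processing notes, with no step attached to either. The product of level and depth was a whole number of methylated reads at 100% of positions (tolerance 1e-06).

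Strands were summed, and a CpG was kept where all 4 libraries had 10 reads or more. At 10 reads with 5 methylated, the 95% Clopper-Pearson interval runs from 18.7% to 81.3%. Reads were amplified, so such intervals and the limits for a count of 0 (3 reads) cover counting error only. Tiles of 1 kb, start windows and gene regions needed at least 3 such CpGs.

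Each kind of feature was fitted over the whole genome with a moderated quasi-binomial model: the Pearson dispersion of each feature was shrunk as limma 3.58.1 does for variances and never below 1, and genotypes were compared with the quasi-likelihood F test, two-sided, with p-values adjusted by Benjamini-Hochberg over all features of the kind. A call needed adjusted p under 0.05 and 10 percentage points. The 95% intervals of differences come from the same dispersion and are approximate. Starts came from RefSeq promoter sequences or, where none was matched, the annotated gene end with more listed CpGs.

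On simulated reads with 200 changed features at mean levels of 35% to 65%, the model recovered 7.46%, 47.8% and 80.3% of tiles changed by 10, 20 and 30 points (of 164026), 14.9%, 68.7% and 93.9% of start windows (of 19802) and 37.3%, 86.6% and 95.5% of regions (of 30562). It recovered 0% of single CpGs at each size, so no call at a CpG says little. Of calls in simulated tiles, 10% were unchanged features.

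The members and lists were chosen with earlier results of these data known. By the rule for names, the text gives all 10 genes, for each the tile of smallest p and the tile with most listed CpGs, the 2 CpGs of smallest p, called list genes, and up to 2 further genes per list. Alternatives covered coverage, size of difference, span, tile size, Fisher's exact test, limma on log2 ratios, a prior drawn from informative features alone (binomial variance of 5 reads or more per library), the replicate block and each library left out. R 4.3.3, pandas 2.3.3 and matplotlib 3.10.9 were used.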

Additional observations from a re-analysis of the deposited data

How the results depend on the processing

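The count of called features among the 10 genes stayed at 0 under every alternative run: 17 for tiles, 15 for start windows, 14 for regions and 13 for single CpGs. Where a setting called 0 features in the whole genome, a 0 among the 10 genes was certain and adds no support. For regions, 0 were called in the genome in the main fit, at 5 and 20 reads and by limma, against 93 by Fisher's exact test. For CpGs the genome held 9 calls in the main fit, 0 at 5 reads or with the replicate block, and 508 by Fisher's exact test. Over the genome the same alternatives moved the number of called tiles from 143 to 128 with the prior from informative features, 202 at 5 reads, 52 at 20 reads, 1216 by Fisher's exact test, 0 by limma and 0 to 2 with each library left out. The lowest adjusted p among the tiles of the 10 genes ranged from 0.0606 by Fisher's exact test to 0.984 with the replicate block. Replicate numbers are shared between genotypes in the labels, but deviations of same-numbered libraries were uncorrelated (-0.00844 over all tiles), so the numbers were not taken as pairs. With the replicate block 0 tiles of the 10 genes and 0 in the genome were called.

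Regional differences, none of them called, were small enough to change sign in 17 of 90 recalculations. With each CpG weighing the same they became 0.346 points for Rnf43, 0.483 for Lect2 and 0.553 for Tcf7l2. A flank of 50 kb gave 0.309 for Lect2 and 0.95 for Rhbg. For Oat a minimum of 5 reads gave 0.0434, of 20 reads 0.684, and the gene body alone 2.21, and for Slc1a2 20 reads gave -0.00657. With each library left out in turn the difference ran from -1.7 to 0.174 for Glul, -1.28 to 1.15 for Rnf43, -1.16 to 0.545 for Rhbg, -1.45 to 0.885 for Oat and -2.71 to 0.484 for Tcf7l2. Among named tiles it crossed 0 for Axin2 108921001 (-0.223 to 0.118), Lgr5 115452001 (-16.1 to 0.706), Lgr5 115587001 (-0.135 to 0.286), Lect2 56522001 (-0.551 to 0.262) and Tcf7l2 55742001 (-0.298 to 0.0623). The cause of these changes was not tested.

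There were 2 libraries per genotype and 37 reads in the shallowest named tile. At mean levels of 35% to 65%, the range simulated, the model missed most differences of 10 points. Recovery outside that range was not tested. Of the 147 tiles, 31 had a mean below 20% and 84 above 80%, and all 8 start windows were below 20% in WT. For those features the intervals given above bound the difference instead. A p that misses the threshold does not show that levels were equal.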
